A study of Mus musculus with 12 samples.

Results

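Genes of cholesterol synthesis, sterol sensing and cholesterol uptake and transport were followed across hippocampus and prefrontal cortex of mice whose edited App, the gene of the amyloid precursor protein (APP), leaves the secreted fragment APPsα, and of mice with intact App. The set was chosen by a list of 28 gene symbols, and every probe set whose platform annotation gives one of these symbols as its only gene was taken. Of the 28 genes, 27 had such a probe set, with 58 probe sets in all, out of 18193 genes and 45037 probe sets measured in the series; Acat2, which encodes a cytosolic thiolase at the head of the pathway, was not analysed here. Of these 27 genes, 10 were read by 1 probe set and 17 by several, and the values below are those of the probe set with the highest mean signal of each gene unless another is named. By role, 6 genes belonged to the mevalonate arm, 12 to the squalene and sterol arm, 6 to sensing and activation of the sterol regulatory factors, and 3 to uptake, transport and export.

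RNA was measured on 12 Affymetrix arrays in 4 groups of 3. APPsα-DM mice (APPα/αAPLP2-/-) carry an edited App on both alleles and lack APLP2, a member of the same protein family as APP; APLP2-KO mice (APLP2-/-) lack APLP2 and keep intact App. The lack of APLP2 was thus shared by every group, and no wild type was analysed here. All animals were adult females aged 38 to 40 weeks from a line crossed back to C57BL/6 over 6 generations, and the series lists 3 mice of each genotype. The groups were APPsα-DM hippocampus, APLP2-KO hippocampus, APPsα-DM cortex and APLP2-KO cortex. Nothing in the labels says whether the hippocampus and the cortex of the same number came from 1 mouse.

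Cells make cholesterol from acetyl-CoA. The mevalonate arm leads to farnesyl diphosphate, and the squalene and sterol arm closes the sterol rings and trims them to cholesterol. When sterols in the endoplasmic reticulum run low, the escort protein SCAP carries the membrane-bound SREBP factors to the Golgi. There the site-1 protease encoded by Mbtps1 makes the first cut in them. Once freed, the factors switch on most genes of both arms together with Insig1 and Stard4. INSIG proteins hold SCAP back when sterols are plentiful. The brain makes its own cholesterol because plasma lipoproteins hardly cross the blood-brain barrier; oligodendrocytes make it for myelin, and astrocytes supply neurons.

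The promoters of 6 members that the results turn on are shown with matches to the sterol regulatory element, which SREBP factors bind, and to the boxes of NF-Y and Sp1, which are known to act with SREBP at sterol genes. The sequences are from RefSeq (assembly GRCm38.p6) and are given 5′ to 3′ on the strand of the gene, as the 150 bases before the annotated start. Capitals mark matches, on either strand, to the short sterol regulatory element pattern CACNCCAC, the NF-Y box CCAAT, the Sp1 box GGGCGG and the E-box CACGTG.
Hmgcs1, chr13:119690201-119690350, plus strand: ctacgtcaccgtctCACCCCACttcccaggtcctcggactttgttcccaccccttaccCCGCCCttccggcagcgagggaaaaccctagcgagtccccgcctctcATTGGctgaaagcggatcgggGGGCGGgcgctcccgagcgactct
Mvd, chr8:122443423-122443572, minus strand: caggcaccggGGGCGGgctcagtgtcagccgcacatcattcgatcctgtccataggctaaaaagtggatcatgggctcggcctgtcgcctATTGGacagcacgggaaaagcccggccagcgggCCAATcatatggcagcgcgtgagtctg
Idi1, chr13:8885456-8885605, plus strand: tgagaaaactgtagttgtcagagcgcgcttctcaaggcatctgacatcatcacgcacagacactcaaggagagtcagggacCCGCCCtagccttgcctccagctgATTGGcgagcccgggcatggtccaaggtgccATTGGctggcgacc
Msmo1, chr8:64733579-64733728, minus strand: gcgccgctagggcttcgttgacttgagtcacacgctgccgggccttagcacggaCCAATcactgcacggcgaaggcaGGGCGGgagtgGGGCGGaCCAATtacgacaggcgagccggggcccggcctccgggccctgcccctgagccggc
Hsd17b7, chr1:169969206-169969355, minus strand: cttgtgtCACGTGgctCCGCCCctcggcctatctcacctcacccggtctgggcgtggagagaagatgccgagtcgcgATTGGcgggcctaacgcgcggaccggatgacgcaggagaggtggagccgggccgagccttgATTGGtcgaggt
Insig1, chr5:28071262-28071411, plus strand: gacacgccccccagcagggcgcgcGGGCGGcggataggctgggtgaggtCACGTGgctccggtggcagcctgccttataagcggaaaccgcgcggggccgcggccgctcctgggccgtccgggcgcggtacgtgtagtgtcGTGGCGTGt

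Promoter windows of 250 bases before to 50 bases after the start were held for 23 of the 28 genes; Fdps, Fdft1, Sqle, Stard4 and Npc1 are only named here. On both strands, CCAAT was found in windows of 19 of the 23 genes (82.6%), against 41.1% of all 27025 genes with a window and 42.5% of the 9411 whose mean signal was at least 6 on the log2 scale. GGGCGG was found for 22 genes (95.7%, against 38.2% and 69.5%) and CACGTG for 6 (26.1%, against 8.09% and 12%). The short sterol element CACNCCAC was found for 3 genes, Acat2, Hmgcs1 and Insig1 (13.0%, against 7.12% and 7.77%). The longer form TCACNCCAC, every match of which also matches the short form, was found for Hmgcs1 alone among them (4.35%, against 1.44% and 1.42%). A gene counted when any of its windows matched, and some genes had several. By window, CCAAT was found in 64.5% of the members' 31 windows, against 37.4% of all 32851. GGGCGG was found in 83.9% against 35.7%, CACGTG in 22.6% against 7.15% and the short sterol element in 9.68% against 6.24%. These are descriptions of letters in a window and show no binding.

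Before the results, 4 features of the samples bear on them. The edited gene App read 11.46 to 11.83 log2 units on the 6 APPsα-DM arrays and 13.38 to 13.5 on the 6 APLP2-KO arrays. Aplp2 read 9.84 to 10.13 and 9.85 to 10.15, and the place of its probes relative to the deletion was not analysed here. All 8 hippocampus markers were called higher in hippocampus in both genotypes, with a mean over the list of 9.12 to 9.49 on hippocampus arrays and 6.48 to 6.62 on cortex arrays, whereas of 7 cortex markers 4 were called lower in hippocampus and 2 higher. Tissue pieces differed in neighbouring tissue: Ttr, a marker of choroid plexus, ranged from 8.20 to 14.36, and among cortex arrays it was highest on APPsα-DM cortex 2 (14.18) and APLP2-KO cortex 3 (14.03). The 6 measured striatum markers averaged 9.90 to 10.60 on cortex arrays and 7.53 to 7.98 on hippocampus arrays. Arrays of a group correlated at r = 0.9947 or more over all probe sets.

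Genotype was compared in each tissue with limma, adjusted over 45037 probe sets. In hippocampus, 0 of the 27 genes passed an adjusted p of 0.05, against 4 of the 45037 probe sets, or 0.00888%. The mevalonate and sterol genes nonetheless lay on 1 side: all 6 and all 12 had a difference (APPsα-DM minus APLP2-KO) below 0, with medians of -0.14 and -0.17 on the log2 scale. The sensing group had a median of -0.00, with 3 of 6 below 0, and the uptake group one of 0.00, with 1 of 3 below 0. Over the 27 genes, 22 lay below 0 (background 37.9% of the 11635 genes with a mean of at least 6), the median was -0.12 (0.019 over those genes) and the range was -0.31 to 0.07. At an unadjusted p under 0.05, 6 of the 27 were lower (background 0.868%) and 0 were higher (2.02%). The members were picked with earlier results of these arrays known. They also moved together between arrays: the median correlation of their pairs was 0.299, against 0.026 among the 11635 genes. The shared sign is thus a description, and the counts are not of separate observations.

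In cortex, 0 of the 27 genes passed the threshold, again against 0.00888% of probe sets. All 6 mevalonate genes and all 12 squalene and sterol genes had differences below 0, with medians of -0.14 and -0.10. The sensing group had a median of -0.01, with 3 of 6 below 0, and the uptake group one of -0.11, with 2 of 3 below 0. Over the 27 genes, 23 lay below 0 (background 52.6%), the median was -0.11 (-0.005 over the 11635 genes) and the range was -0.26 to 0.09. At an unadjusted p under 0.05, 4 genes were lower (background 2.61%) and 0 were higher (1.28%). By gene, 21 lay below 0 in both tissues and 3 above 0 in both.

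**Figure D1:**
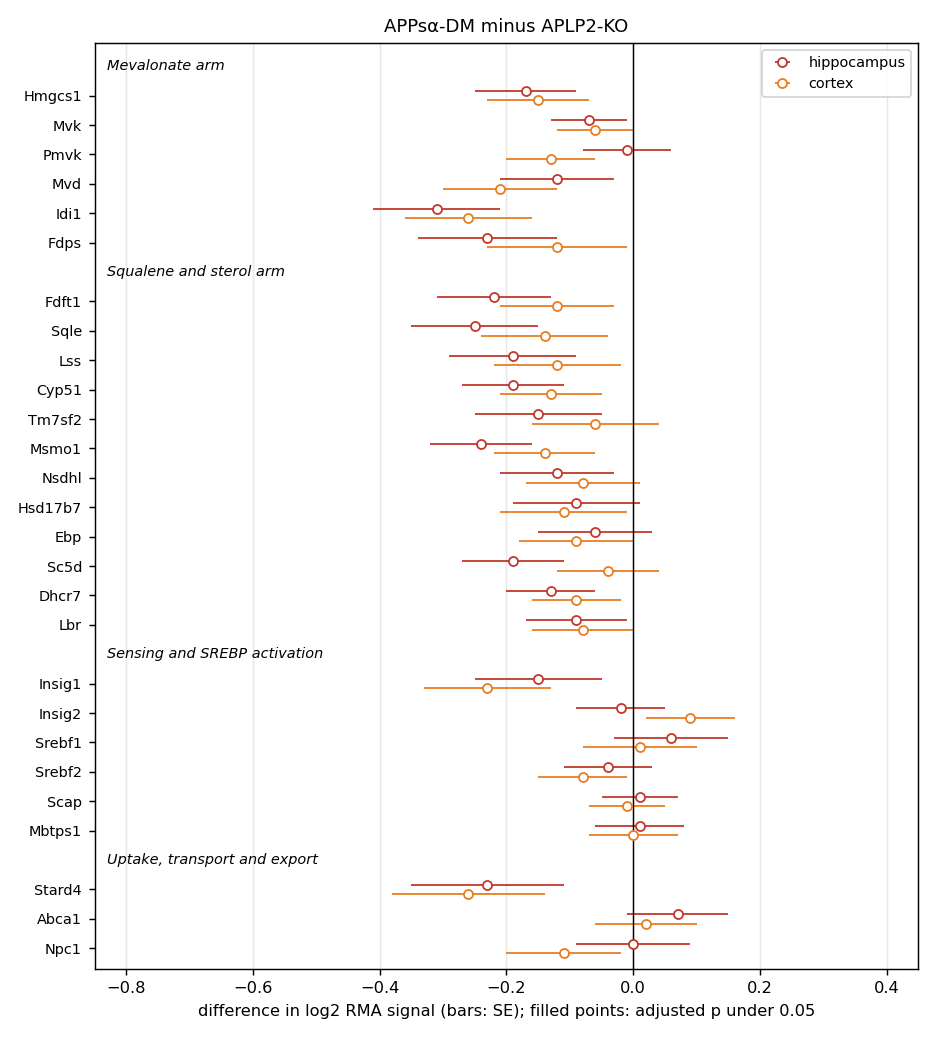
Differences in log2 RMA signal between APPsα-DM and APLP2-KO (horizontal axis) for the 27 genes by role, in hippocampus and in cortex, with bars of 1 moderated SE. The 18 genes of the mevalonate and sterol arms lie below 0 in both tissues, and no point is filled because none passed the adjusted threshold.

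**Figure D2:**
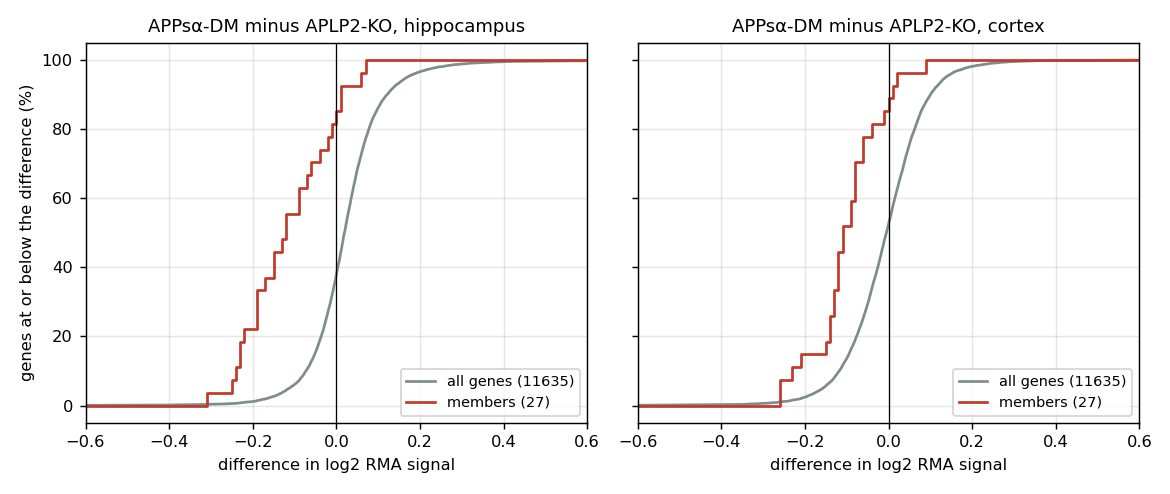
Cumulative share of genes (vertical axis, %) at or below a given genotype difference in log2 signal (horizontal axis), for the 27 members and for all 11635 genes with a mean of at least 6, by tissue. At a difference of 0 the members' curve has counted 22 of 27 genes in hippocampus and 23 of 27 in cortex, against 37.9% and 52.6% of all genes.

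Among the brightest probe sets, Idi1 had the smallest p in both tissues. It encodes the isomerase that interconverts the 5-carbon building blocks of the pathway. Idi1 read 9.21, 9.16 and 9.04 on APPsα-DM hippocampus arrays, against 9.63, 9.48 and 9.22 on APLP2-KO hippocampus arrays. It read 9.41, 9.45 and 9.25 in APPsα-DM cortex, against 9.68, 9.70 and 9.50 in APLP2-KO cortex. In each tissue all APPsα-DM arrays lay below all APLP2-KO arrays, in hippocampus by a narrow gap (9.21 against 9.22). The difference was -0.31 ± 0.10 (SE) in hippocampus (1.24-fold lower) and -0.26 ± 0.10 in cortex (1.20-fold lower), and neither passed (adjusted p = 1.0 in each, limma).

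Hmgcs1, which encodes the synthase that joins acetoacetyl-CoA and acetyl-CoA, read 11.55, 11.73 and 11.54 in APPsα-DM hippocampus, against 11.83, 11.84 and 11.65 in APLP2-KO hippocampus. In cortex it read 11.81, 12.01 and 11.87 in APPsα-DM, against 12.02, 12.08 and 12.03 in APLP2-KO. The arrays overlapped in hippocampus and lay just apart in cortex (12.01 against 12.02). Its difference was -0.17 ± 0.08 in hippocampus and -0.15 ± 0.08 in cortex (adjusted p = 1.0 each). Mvd encodes the decarboxylase that makes isopentenyl diphosphate. It read 7.08, 7.02 and 7.01 in APPsα-DM hippocampus, against 7.24, 7.21 and 7.01 in APLP2-KO hippocampus, and 7.14, 7.41 and 7.15 in APPsα-DM cortex, against 7.42, 7.49 and 7.41 in APLP2-KO cortex. APPsα-DM cortex 2 and APLP2-KO hippocampus 3 were the arrays that made the groups meet, and the differences were -0.12 ± 0.09 and -0.21 ± 0.09 (adjusted p = 1.0 each).

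The dimmer Mvd probe set 1 (by order of identifier) had the smallest p of the members' 58 probe sets in cortex. In hippocampus that place was held by the dimmer Fdft1 probe set 2 (-0.39 ± 0.07, adjusted p = 0.626, limma). Mvd probe set 1 read 6.39, 6.40 and 6.28 in APPsα-DM hippocampus, against 6.54, 6.78 and 6.59 in APLP2-KO hippocampus, and 6.66, 6.61 and 6.44 in APPsα-DM cortex, against 6.92, 6.95 and 6.85 in APLP2-KO cortex. Unlike the brighter probe set, its genotypes did not overlap in either tissue, and it differed by -0.28 ± 0.08 in hippocampus and by -0.34 ± 0.08 in cortex (adjusted p = 1.0 each). Fdps, the farnesyl diphosphate synthase gene, differed by -0.23 ± 0.11 and -0.12 ± 0.11 in hippocampus and cortex, and the kinase genes Mvk and Pmvk by -0.07 and -0.01 in hippocampus and by -0.06 and -0.13 in cortex.

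In the squalene and sterol arm, Msmo1 stood out by its arrays. This gene encodes the methyl sterol monooxygenase that takes methyl groups off the sterol ring. Msmo1 read 10.04, 9.93 and 9.94 in APPsα-DM hippocampus, against 10.34, 10.23 and 10.05 in APLP2-KO hippocampus. In cortex the values were 10.07, 10.17 and 10.10 in APPsα-DM and 10.20, 10.36 and 10.22 in APLP2-KO. The genotypes did not overlap in either tissue, and the differences were -0.24 ± 0.08 (1.18-fold lower) in hippocampus and -0.14 ± 0.08 in cortex, with an adjusted p of 1.0 in each.

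Fdft1, the squalene synthase gene, read 10.22, 10.06 and 10.06 in APPsα-DM hippocampus, against 10.48, 10.43 and 10.10 in APLP2-KO hippocampus. In cortex it read 10.45, 10.52 and 10.49 in APPsα-DM, against 10.57, 10.63 and 10.62 in APLP2-KO. The groups overlapped in hippocampus through 1 APLP2-KO array and did not overlap in cortex, where the difference was smaller: -0.22 ± 0.09 in hippocampus and -0.12 ± 0.09 in cortex. Sqle, which encodes squalene epoxidase, differed by -0.25 ± 0.10 in hippocampus, where it read 9.87, 9.65 and 9.78 in APPsα-DM, against 10.13, 10.12 and 9.79 in APLP2-KO. In cortex it differed by -0.14 ± 0.10. Cyp51, the sterol demethylase gene, differed by -0.19 ± 0.08 and -0.13 ± 0.08 in hippocampus and cortex, and Sc5d, the sterol desaturase gene, by -0.19 ± 0.08 and -0.04 ± 0.08. The adjusted p was 1.0 for each of these. The other 7 genes of the arm (Lss, Tm7sf2, Nsdhl, Hsd17b7, Ebp, Dhcr7 and Lbr) lay between -0.19 and -0.06 in hippocampus and between -0.12 and -0.06 in cortex.

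Among the brightest probe sets of the sensing genes, only that of Insig1 had a difference of more than 0.10 in size in either tissue. Insig1 read 7.47, 7.63 and 7.60 in APPsα-DM hippocampus, against 7.94, 7.72 and 7.48 in APLP2-KO hippocampus, and the groups overlapped. In cortex the values were 7.98, 8.12 and 8.02 in APPsα-DM and 8.37, 8.20 and 8.25 in APLP2-KO, with no overlap. The differences were -0.15 ± 0.10 and -0.23 ± 0.10 (adjusted p = 1.0 each). Insig2, whose product also holds SCAP, differed by -0.02 in hippocampus and by 0.09 ± 0.07 in cortex, where its APPsα-DM arrays lay above all APLP2-KO arrays. The factor genes Srebf1 and Srebf2 differed by 0.06 and -0.04 in hippocampus and by 0.01 and -0.08 in cortex. The dimmer Srebf2 probe set 1 differed by -0.11 ± 0.08 in hippocampus, with no overlap, and by -0.21 ± 0.08 in cortex, with overlap (adjusted p = 1.0 each), and its averages over the tissues did not overlap (-0.16 ± 0.06). Scap and Mbtps1 differed by 0.01 each in hippocampus and by -0.01 and 0.00 in cortex.

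Stard4, which encodes a soluble carrier of sterols between membranes, was the 1 member of the uptake group with differences like those of the synthesis genes. It read 7.95, 7.98 and 7.96 in APPsα-DM hippocampus, against 8.42, 8.30 and 7.86 in APLP2-KO hippocampus. In cortex it read 8.53, 8.47 and 8.57 in APPsα-DM, against 8.75, 8.88 and 8.73 in APLP2-KO. The cortex groups did not overlap, and in hippocampus APLP2-KO array 3 lay below all APPsα-DM arrays. Its differences were -0.23 ± 0.12 and -0.26 ± 0.12 (adjusted p = 1.0 each). Abca1, the exporter that loads cholesterol onto apolipoproteins, differed by 0.07 and 0.02, and Npc1, which moves cholesterol out of lysosomes, by 0.00 and -0.11.

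**Figure D3:**
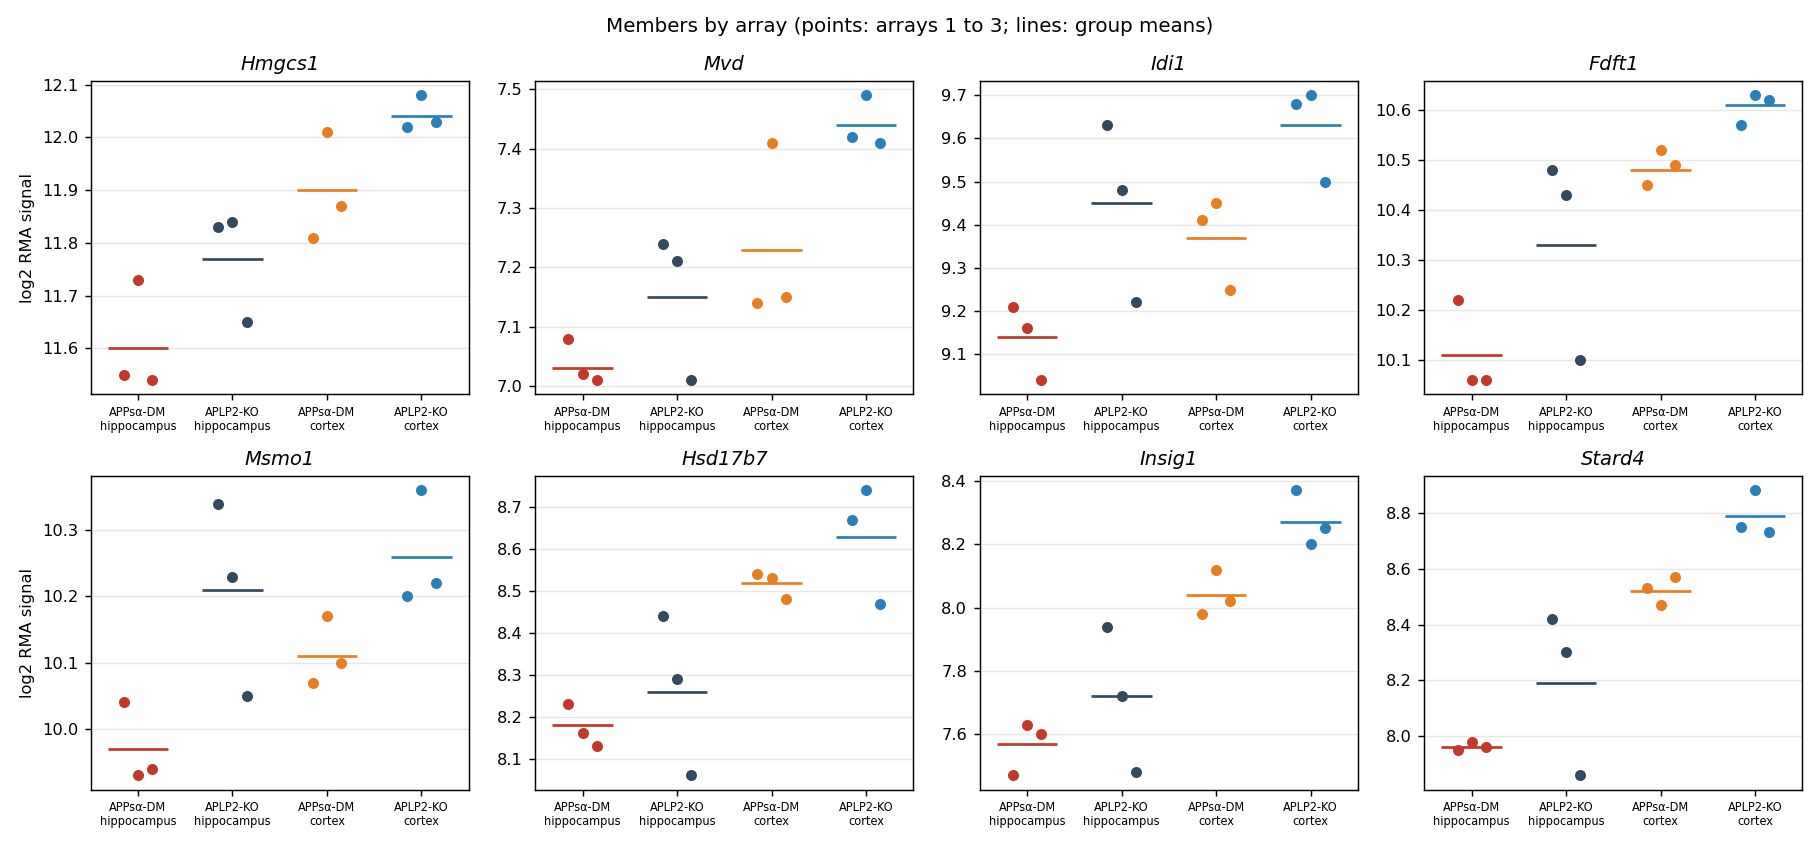
Log2 RMA signal (vertical axes, 1 scale per gene, not starting at 0) of 8 members on each array, with group means as lines, in the order APPsα-DM hippocampus, APLP2-KO hippocampus, APPsα-DM cortex and APLP2-KO cortex. APPsα-DM means lie below APLP2-KO means of the same tissue for each of the 8 genes, and hippocampus means lie below cortex means of the same genotype.

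When the arrays of a genotype and number were averaged over the tissues, 3 averages against 3, 0 members passed (background 0.00888%), and 9 had an unadjusted p under 0.05 and were lower (background 1.53%), with 0 higher (2.09%). Of the 27, 23 lay below 0 (background 45.3%). The smallest p values were those of Idi1 (-0.29 ± 0.09), Msmo1 (-0.19 ± 0.06), Stard4 (-0.25 ± 0.08), Fdft1 (-0.17 ± 0.06) and Sqle (-0.19 ± 0.07), each with APPsα-DM averages below all APLP2-KO averages and an adjusted p of 1.0. In all, 7 genes had averages that did not overlap, lower in APPsα-DM (background 4.97%), and 0 the other way (6.35%). On single arrays, 2 genes were lower without overlap in hippocampus (background 3.36%) and 2 higher (6.22%), and 6 were lower in cortex (6.8%) and 1 higher (4.07%). The difference of the genotype effect between the tissues (hippocampus minus cortex) was called for 0 of 27 members and 0.0% of probe sets, ranged from -0.15 for Sc5d to 0.12 for Pmvk, and had an unadjusted p under 0.05 for 0 of them (background 0.395% lower and 1.53% higher).

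The mean over each group of genes on each array showed where the genotypes met. The mevalonate genes averaged 8.89, 8.83 and 8.79 in APPsα-DM hippocampus, against 9.10, 9.03 and 8.83 in APLP2-KO hippocampus. In cortex their mean was 8.98, 9.09 and 8.98 in APPsα-DM, against 9.17, 9.21 and 9.14 in APLP2-KO. The squalene and sterol genes averaged 8.75, 8.67 and 8.69 in APPsα-DM hippocampus and 8.96, 8.90 and 8.73 in APLP2-KO hippocampus, with 8.89, 8.90 and 8.86 in APPsα-DM cortex and 8.97, 9.03 and 8.95 in APLP2-KO cortex. Cortex groups did not overlap in either arm, and hippocampus groups met at APLP2-KO hippocampus 3. That array was the lowest of its group for 24 of the 27 members, against 43.7% of the 11635 genes, and APLP2-KO hippocampus 1 was the highest for 21 of 27, against 42.0%. The median genotype difference of the 27 genes in hippocampus, -0.12 over all arrays, was -0.19 without APLP2-KO hippocampus 3 and -0.07 without APLP2-KO hippocampus 1.

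**Figure D4:**
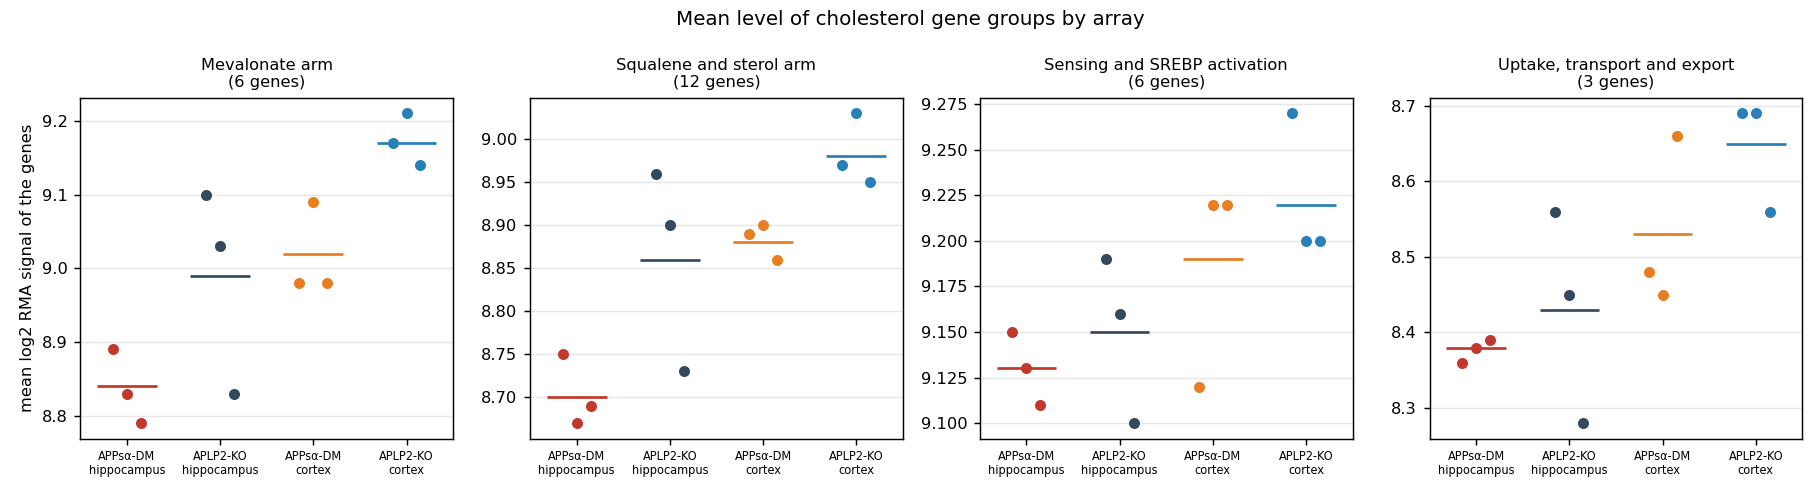
Mean log2 RMA signal of the genes of each role (vertical axes, 1 scale per panel, not starting at 0) on each array, with group means as lines. APPsα-DM cortex arrays lie below APLP2-KO cortex arrays for the mevalonate arm and the squalene and sterol arm, and in those panels APLP2-KO hippocampus 3 lies among the APPsα-DM hippocampus arrays.

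The tissue comparison gave calls. In APPsα-DM mice, 5 of 27 genes fell in hippocampus relative to cortex and 0 rose, against a background of 10.6% of probe sets called in either direction, 5.42% of them lower; among the 11635 genes, 9.61% were called lower. In APLP2-KO mice, 5 fell and 0 rose, against 12.6% of probe sets in either direction, 6.98% lower, and 13.3% lower among the 11635 genes. Insig2 was called higher in APLP2-KO hippocampus in 4 of 16 alternatives: with dim probe sets left out (adjusted p = 0.0316), with an intensity trend (0.0431), with array weights (0.0293) and with its probe sets averaged (0.0144). Without APPsα-DM cortex 3, 1 member was called higher and 2 lower in APPsα-DM hippocampus. In the main fit the members' share was 18.5% in each genotype, and whether it exceeds the background was not tested. Stard4, Insig1, Hmgcs1 and Hsd17b7 passed in both genotypes, Fdft1 in APPsα-DM and Mvd in APLP2-KO. That Fdft1 and Mvd passed in 1 genotype each does not show that the genotypes differ. The test of that difference called neither, nor any of the 45037 probe sets, so it leaves the question undecided. In bulk tissue, fewer cells of a type and less RNA per cell cannot be told apart.

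Stard4 fell by 0.56 ± 0.12 on the log2 scale in APPsα-DM hippocampus relative to cortex (1.48-fold lower, adjusted p = 0.00695, limma) and by 0.59 ± 0.12 in APLP2-KO (1.51-fold, adjusted p = 0.0042, limma). Insig1 fell by 0.47 ± 0.10 in APPsα-DM (1.39-fold, adjusted p = 0.00998, limma) and by 0.56 ± 0.10 in APLP2-KO (1.47-fold, adjusted p = 0.00281, limma). For both genes, every hippocampus array of a genotype lay below every cortex array of it, as the values above show. Hmgcs1 fell by 0.29 ± 0.08 in APPsα-DM (adjusted p = 0.0355, limma) and by 0.27 ± 0.08 in APLP2-KO (adjusted p = 0.0457, limma). The Hmgcs1 call ended in APPsα-DM without hippocampus 1 (adjusted p = 0.111), hippocampus 3 (0.137), cortex 2 (0.127) or cortex 3 (0.0658) of that genotype, and in APLP2-KO without any 1 of its 6 arrays (0.0605 to 0.174). It also ended without the 2 cortex arrays highest in Ttr (0.158 in APPsα-DM and 0.0812 in APLP2-KO), with the choroid plexus markers as a covariate (0.113 and 0.081) and in fits of 1 genotype's arrays (0.0888 and 0.0628), and in APLP2-KO with its probe sets averaged (-0.14, 0.165). The Insig1 call in APPsα-DM ended without those 2 cortex arrays (-0.43, adjusted p = 0.0605).

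Hsd17b7 encodes a keto-reductase of the sterol arm. It read 8.23, 8.16 and 8.13 in APPsα-DM hippocampus, against 8.54, 8.53 and 8.48 in APPsα-DM cortex, and 8.44, 8.29 and 8.06 in APLP2-KO hippocampus, against 8.67, 8.74 and 8.47 in APLP2-KO cortex. Tissues did not overlap in either genotype, and it fell by 0.34 ± 0.10 (adjusted p = 0.0371, limma) in APPsα-DM and by 0.37 ± 0.10 (adjusted p = 0.023, limma) in APLP2-KO. Fdft1 fell by 0.37 ± 0.09 in APPsα-DM (adjusted p = 0.0213, limma), and in APLP2-KO its difference was -0.27 ± 0.09 (adjusted p = 0.0792, limma). Mvd fell by 0.29 ± 0.09 in APLP2-KO (adjusted p = 0.0446, limma), and in APPsα-DM its difference was -0.20 ± 0.09 (adjusted p = 0.183, limma). These calls depended on single arrays and on other settings. Hsd17b7 lost the call in APPsα-DM without any 1 of its 6 arrays (adjusted p 0.0622 to 0.123) and in APLP2-KO without hippocampus 2 (0.0594), hippocampus 3 (0.094), cortex 1 (0.0743) or cortex 2 (0.0966). Fdft1 lost it in APPsα-DM without hippocampus 2 or 3 or cortex 2 or 3 (0.0568 to 0.0831), and Mvd in APLP2-KO without hippocampus 2 or 3 or any cortex array (0.0756 to 0.172). In APPsα-DM, Fdft1 and Hsd17b7 also lost the call without the 2 cortex arrays highest in Ttr (0.0907 and 0.0803) and with the choroid plexus covariate (0.0693 and 0.142). With probe sets averaged, Hsd17b7 lost it in both genotypes (-0.25 and -0.20, 0.0828 and 0.154), and in APLP2-KO it did so in the fit of 6 arrays (0.0807). Mvd in APLP2-KO lost it with the covariate (0.0563), with repeated quantile normalization (0.0561), in the fit of 6 arrays (0.0595) and with the replicate number as a block (0.0631).

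Next in order without passing stood, in APPsα-DM, Tm7sf2, a sterol reductase gene (-0.32 ± 0.10, adjusted p = 0.0593, limma), Cyp51 (-0.25 ± 0.08, adjusted p = 0.0742, limma) and Sc5d (-0.25 ± 0.08, adjusted p = 0.0807, limma). In APLP2-KO they were Fdft1, Insig2 (0.20 ± 0.07, adjusted p = 0.0819, limma) and Pmvk (-0.19 ± 0.07, adjusted p = 0.132, limma). Among 16 alternatives in APPsα-DM, Tm7sf2 was called lower in 6, Cyp51 in 4 and Sc5d in 4. Among 16 in APLP2-KO, Fdft1 was called lower in 3. The medians over the 27 genes were -0.13 in APPsα-DM and -0.11 in APLP2-KO. Of the 27, 22 lay below 0 in APPsα-DM (background 48.9%) and 21 in APLP2-KO (53.6%), and 14 (19.4%) and 9 (26.2%) were lower without overlap of arrays. By role, the mevalonate genes had medians of -0.19 in both genotypes, the squalene and sterol genes -0.17 and -0.12, the sensing genes -0.01 and -0.03 and the uptake genes -0.11 and -0.22. Abca1 was highest at 0.22 ± 0.08 in APPsα-DM and stood at 0.17 in APLP2-KO, with no overlap of the tissues in either.

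**Figure D5:**
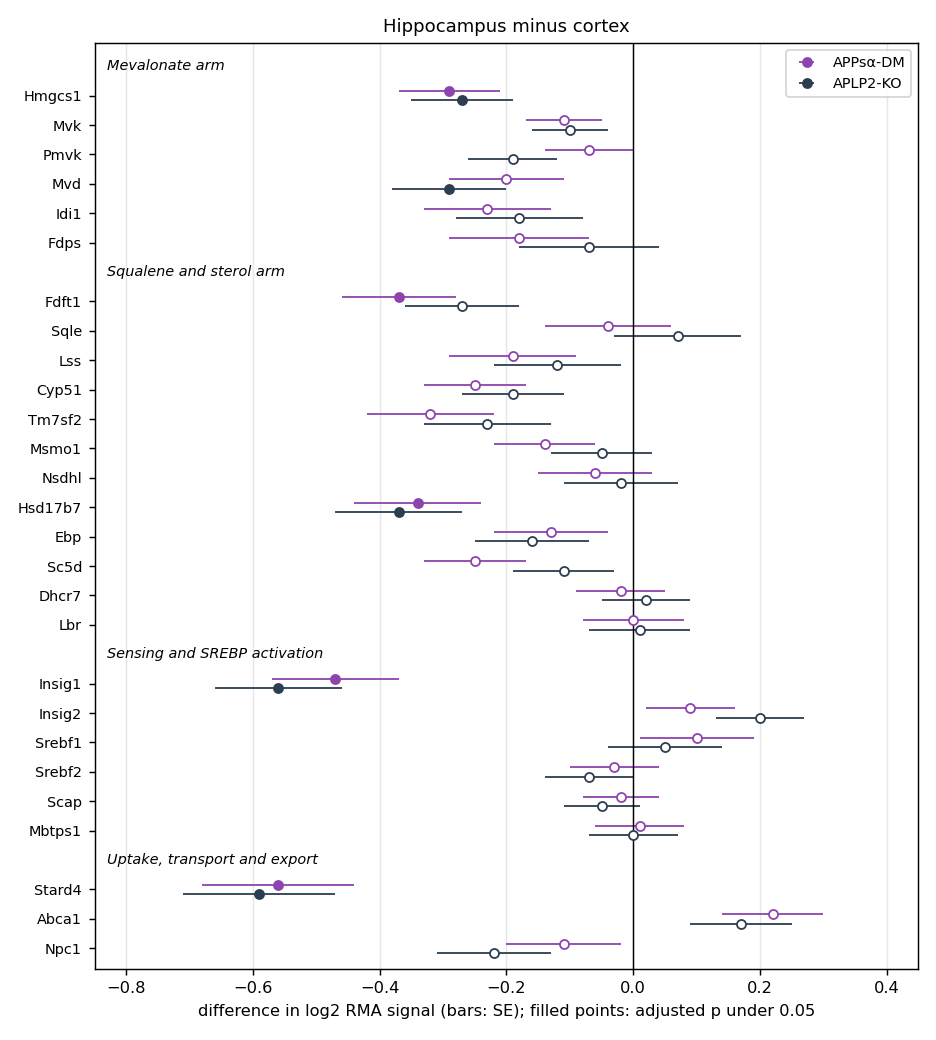
Differences in log2 RMA signal between hippocampus and cortex (horizontal axis) for the 27 genes by role, in APPsα-DM and in APLP2-KO, with bars of 1 moderated SE; filled points passed an adjusted p of 0.05. Stard4 and Insig1 lie farthest below 0 in both genotypes, and Abca1 and Insig2 lie above 0.

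The genes had 31 further probe sets, 20 of them with a mean of at least 6, and in hippocampus 19 of these 20 had a genotype difference of the same sign as the brightest probe set, in cortex 16. A dimmer Srebf2 probe set (probe set 1 by order of identifier) read 7.81, 7.87 and 7.77 in APPsα-DM hippocampus, against 8.30, 8.38 and 8.58 in APPsα-DM cortex. In APLP2-KO it read 7.94, 7.90 and 7.95 in hippocampus and 8.53, 8.75 and 8.61 in cortex. It fell by 0.60 ± 0.08 in APPsα-DM (1.52-fold, adjusted p = 0.00039, limma) and by 0.70 ± 0.08 in APLP2-KO (1.63-fold, adjusted p = 9.75e-05, limma), whereas the brightest Srebf2 probe set differed by -0.03 and -0.07.

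Which transcripts of Srebf2 the 2 probe sets read was not analysed here. Stard4 probe set 3 fell in both genotypes (by 0.56 ± 0.13 in APPsα-DM and 0.60 ± 0.13 in APLP2-KO) and probe set 1 in APPsα-DM (by 0.94 ± 0.24, adjusted p = 0.0263, limma), so that each Stard4 probe set was called in at least 1 genotype. Insig2 probe set 1 rose in APLP2-KO hippocampus by 0.45 ± 0.11 (adjusted p = 0.0194, limma). Abca1 probe set 3 rose there by 0.71 ± 0.19 (adjusted p = 0.0259, limma), at a dim mean of 5.93.

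Other genes of sterol handling lay on both sides of 0. Of a list of 30, 24 were measured, and 0 were called for genotype in either tissue; 15 lay above 0 and 9 below in hippocampus (median 0.03), and 13 above and 11 below in cortex (median 0.02). Between tissues, 3 rose and 3 fell in hippocampus in both genotypes, and they were the same 6 genes. Over all probe sets, 10.6% were called in either direction in APPsα-DM and 12.6% in APLP2-KO. Whether the list's share exceeds these was not tested. Cyp7b1, an oxysterol hydroxylase gene, rose by 1.12 ± 0.08 in APPsα-DM and by 1.13 ± 0.08 in APLP2-KO, Mylip, which encodes a ligase that marks lipoprotein receptors for degradation, by 0.32 and 0.48, and Clu, a lipid-carrying apolipoprotein gene, by 0.23 and 0.26. Cyp46a1, which encodes the neuronal enzyme that hydroxylates cholesterol for export from the brain, fell by 0.37 ± 0.06 and 0.44 ± 0.06. Cyp27a1, another cholesterol hydroxylase gene, fell by 0.40 and 0.44, and Stard3, a late endosomal sterol carrier gene, by 0.23 and 0.32.

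Of genes of fatty acid synthesis, which SREBP factors also switch on, 15 of 16 had a genotype difference below 0 in hippocampus (background 37.9%, median -0.03). In cortex all 16 did (background 52.6%, median -0.09), and 0 were called in either tissue. Whether these counts exceed the background was not tested. Scd1, a desaturase gene, differed by -0.26 ± 0.09 and -0.24 ± 0.09 in hippocampus and cortex, and Fads2, another desaturase gene, by -0.15 ± 0.10 and -0.28 ± 0.10 (adjusted p = 1.0 each). Between the tissues, Thrsp rose by 0.59 ± 0.08 and 0.55 ± 0.08 in hippocampus of APPsα-DM and APLP2-KO, and Scd1 fell by 0.33 ± 0.09 and 0.31 ± 0.09. Acaca, the gene of acetyl-CoA carboxylase, fell in APLP2-KO by 0.25 ± 0.08.

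Markers of cell types that make cholesterol, and of tissue around the pieces, were set beside these differences, and their part in the members' differences was not tested. Of 11 oligodendrocyte and myelin markers, 10 lay below 0 for genotype in hippocampus (median -0.03) and 11 in cortex (median -0.06), and 0 were called. Their mean was 10.32 to 10.58 in APPsα-DM hippocampus, against 10.17 to 10.71 in APLP2-KO hippocampus, and 10.47 to 10.69 in APPsα-DM cortex, against 10.59 to 10.78 in APLP2-KO cortex. Within its group, APLP2-KO hippocampus 3 was lowest for this list (10.17), and also for the cortex markers (7.97) and the endothelial and pericyte markers (7.70). For the hippocampus markers it was highest (9.49). Mbp, the myelin basic protein gene, differed between genotypes by -0.03 ± 0.07 in hippocampus and by -0.02 ± 0.07 in cortex. Over the 11 markers the differences ranged from -0.16 to 0.01 in hippocampus and from -0.21 to -0.01 in cortex. Between the tissues all 11 lay below 0 in both genotypes (medians -0.14 in APPsα-DM and -0.20 in APLP2-KO, 0 called).

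The other marker lists were set beside the tissue differences as well, and their part in these was not tested. All 6 measured striatum markers were called lower in hippocampus in both genotypes (medians -2.37 in APPsα-DM and -2.51 in APLP2-KO). Of 12 neuron markers, 11 lay below 0 in APPsα-DM and 10 in APLP2-KO (medians -0.08 and -0.15), and Camk2a and Tubb3 fell in both. The neuron list averaged 11.90 to 11.99 in APPsα-DM hippocampus, against 12.04 to 12.13 in APPsα-DM cortex, and 11.93 to 11.98 in APLP2-KO hippocampus, against 12.11 to 12.20 in APLP2-KO cortex, with no overlap. Of 12 endothelial and pericyte markers, 10 lay below 0 in each genotype, with 0 called in APPsα-DM and 5 lower in APLP2-KO. Of 12 astrocyte markers, 3 rose and 1 fell in each genotype, and Gfap rose by 1.38 ± 0.11 in APPsα-DM and by 1.18 ± 0.11 in APLP2-KO. All 10 ependyma markers lay above 0 in both genotypes, with 8 called in APPsα-DM and 2 in APLP2-KO, and all 10 choroid plexus markers did so with 0 called (medians 1.62 and 0.69). Of 11 microglia markers, 10 and 7 lay below 0 with 0 called, and of 10 markers of leptomeninges and smooth muscle, 8 and 6 lay above 0 with 2 called higher in each genotype.

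Of 12 astrocyte markers, 10 lay below 0 for genotype in each tissue (medians -0.04 in hippocampus and -0.07 in cortex, 0 called). Their mean was 10.83 to 10.88 in APPsα-DM hippocampus, against 10.89 to 10.95 in APLP2-KO hippocampus, with no overlap, and 10.61 to 10.70 in APPsα-DM cortex, against 10.63 to 10.81 in APLP2-KO cortex. Gfap and Aqp4, which mark astrocytes, differed by 0.13 ± 0.11 and -0.14 ± 0.10 in hippocampus. Other lists lay the other way. All 12 endothelial and pericyte markers lay above 0 in hippocampus (median 0.23; mean 7.89 to 8.09 in APPsα-DM, against 7.70 to 7.79 in APLP2-KO), all 10 ependyma markers (median 0.36; 6.79 to 7.08, against 6.38 to 6.61) and all 10 choroid plexus markers (median 1.10; 5.95 to 8.93, against 5.66 to 7.87). In cortex these were 11 of 12 (median 0.10), 8 of 10 (0.13) and 7 of 10 (0.13). All 6 measured striatum markers lay above 0 in cortex (median 0.23), and 3 of 6 did in hippocampus (median 0.07). Their mean in cortex was 9.94 to 10.60 in APPsα-DM, against 9.90 to 10.28 in APLP2-KO, with overlap. Of any of these lists, 0 markers were called for genotype. With the mean of the choroid plexus markers as a covariate, the members called between the tissues were Stard4, Insig1 and Tm7sf2 (adjusted p = 0.0447, limma; not called without the covariate) in APPsα-DM. There 8.48% of probe sets were called in either direction and 4.18% were called lower. In APLP2-KO the members called were Stard4, Insig1 and Hsd17b7, with 11.5% of probe sets called in either direction and 6.29% called lower. All of these members were lower in hippocampus.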

How the data were processed

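The authors deposited log2 values per probe set for 12 Affymetrix arrays, made with RMA and the affy package per the submitters' processing notes; their versions are not stated in the labels. RMA corrects background, normalises arrays by quantiles and summarises probes, so a global shift of RNA per cell cannot be seen. The table held 45101 probe sets, and 64 controls were left out. The platform annotation gave 1 symbol for 34945 probe sets, several for 932 and none for 9160, and 34741 with 1 symbol were found in the reference table (GRCm38.p6). In R 4.3.3, limma 3.58.1 (lmFit and eBayes, checked on simulated data) fitted 4 group means over 12 arrays (8 residual degrees of freedom; median SE 0.0938), with Benjamini-Hochberg adjustment over 45037 probe sets and a threshold of 0.05. The mean genotype difference was fitted on 6 averages. A rule named the members past the threshold and, where fewer than 8 passed, those with the smallest p. Members and lists were chosen with earlier results of these data known. Replicate numbers were checked as pairs. Deviations from group means of same-numbered tissues correlated at 0.109 to 0.155 in APLP2-KO and at 0.0193 to 0.0785 in APPsα-DM. Those of same-numbered genotypes correlated at -0.2549 to 0.2059. Of 12 arrays, 11 had their best match in the other tissue of their genotype at their own number. The main fits used no pairs. The replicate block, an alternative, read same-numbered tissues as 1 mouse in the tissue comparisons of both genotypes. Alternatives were each array left out, median centring, repeated quantile normalization, a filter on dim probe sets, an intensity trend, array weights, the replicate block, a choroid plexus covariate, leaving out the 2 cortex arrays highest in Ttr, averaging every probe set of a gene, and fits on fewer arrays. Apart from the mean genotype difference, the p-values rest on a spread within groups that was pooled over the 4 groups and moderated over probe sets. They take the 12 arrays as separate samples, although same-numbered tissues may come from 1 mouse. Having 3 arrays a group limits the precision, and 3 against 3 allows no exact p below 0.1.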

Additional observations from a re-analysis of the deposited data

Results flagged for a closer look

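A dim probe set of Fdft1, the squalene synthase gene (probe set 2, mean 5.46), stood out because its tissues were apart in opposite directions in the genotypes. It read 5.25, 5.34 and 5.26 in APPsα-DM hippocampus, against 5.52, 5.48 and 5.44 in APPsα-DM cortex, and 5.53, 5.78 and 5.71 in APLP2-KO hippocampus, against 5.41, 5.49 and 5.35 in APLP2-KO cortex. Hippocampus minus cortex was -0.20 in APPsα-DM and 0.26 in APLP2-KO, where it passed (adjusted p = 0.0409, limma). The difference between the genotypes in this tissue difference was -0.45 ± 0.11 (adjusted p = 1.0, limma). The brightest Fdft1 probe set did not share the pattern.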

How the results depend on the processing

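No member was called for genotype under any alternative (limma; smallest adjusted p 0.146, for Idi1 in hippocampus). Members below 0 numbered 20 to 25 in hippocampus and 21 to 26 in cortex, and the medians lay between -0.19 and -0.07 in hippocampus and between -0.13 and -0.08 in cortex. Leaving out APLP2-KO hippocampus 3 moved the hippocampus median to -0.19 and the median of the genotype difference in hippocampus minus that in cortex to -0.08 (range with 1 array left out -0.08 to 0.01), and leaving out APLP2-KO hippocampus 1 moved the APLP2-KO tissue median to -0.17 (range -0.17 to -0.07). Of members called between the tissues, 5 in APPsα-DM became 2 to 5 with 1 array left out, 8 with dim probe sets left out, 8 with an intensity trend, 3 with the choroid plexus covariate and 1 without the 2 cortex arrays highest in Ttr. The 5 in APLP2-KO became 2 to 5 with 1 array left out, 7 (Fdft1 lower and Insig2 higher added) with dim probe sets left out, 7 with an intensity trend, 3 with the covariate and 2 in the fit of 6 arrays. Of all probe sets in APPsα-DM, 4.18% were called lower with the covariate and 4.32% without those 2 cortex arrays, against 5.42% in the main fit. In APLP2-KO, 6.29% were called lower with the covariate, against 6.98%. Shares under the other settings are not given here, so these counts do not show a change particular to the members. Stard4 was called in each of 16 alternatives in both genotypes (largest adjusted p 0.0357 in APPsα-DM and 0.0297 in APLP2-KO) and Insig1 in each in APLP2-KO and in 15 of 16 in APPsα-DM (0.0605 without the 2 cortex arrays). Hmgcs1, Hsd17b7, Fdft1 and Mvd lost their calls without single arrays and under the other settings given with them above. For Msmo1, the genotype difference in hippocampus minus that in cortex was 0.01 with its probe sets averaged, against -0.10 for the brightest. The causes were not tested. The replicate block changed the call of Mvd in APLP2-KO and of Cyp51 in APPsα-DM (adjusted p = 0.0470) and no other member's call.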
